A study of Mus musculus with 28 samples.

Results

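The comparison described here is of mouse embryonic stem (ES) cells in which a Jmjd2c transgene was switched on against the same cells with it kept off. Its members are 4 of the 28 arrays of the series, chosen by their labels: the 2 arrays of the tetJmjd2c line without doxycycline (Dox), where the transgene is on, and the 2 with Dox, where it is off. The cells are male ES cells, their strain spelled 126S6/SvEvTac in the labels. They carry a tetracycline-responsive cassette, in which Dox holds the transgene silent. The labels of all 28 arrays name MC1R ahead of the transgene, so this part of the label is shared by every line. The Jmjd2c line is 1 clone, clone 14, used at passage 25 in LIF medium. Both cultures were plated in Dox and puromycin (0.2 and 1.5 ug/ml). One was then washed free of Dox, and both were harvested 48 hours after the last wash. The cells of the line had been split into 6 wells, 3 in each medium, and 2 wells of each medium were put on arrays. The other 24 arrays hold 6 more lines handled the same way, each with its own transgene (Tcl1, Etv5, Tbx3, Jarid2, Ctbp2 or Mettl5), 2 arrays with Dox and 2 without in each.

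Jmjd2c, also called Kdm4c, is an enzyme of the Jumonji family that removes methyl groups from histone H3 at lysine 9, a mark of silenced chromatin. In ES cells it is known for keeping that mark away from the promoters of self-renewal genes. A forced rise of such an enzyme is a test of which transcripts respond when the demethylase is in excess.

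Each array carried the sample RNA in the green dye (Cy3) and one common reference in the red dye (Cy5), a pool of RNA from mouse cell lines mixed with ES cell RNA. The value of a probe is log2 of its Cy3 over its Cy5 signal, called its level below, and a change is the mean level without Dox minus the mean with Dox. The array holds 42006 probes of 60 bases, of which 27247 gave a Cy3 signal well above background on each array of one culture or the other. The probes carry no gene name and no position, and 0 of their identifiers matched the RefSeq gene table used here, so they are given by identifier and sequence. The transgene's own transcript, gene lists and markers of the ES cell state were therefore not analysed here. The Jmjd2c arrays had 27018 to 28653 probes well above background in Cy3, the range over all 28 arrays being 25428 to 28841, and no spot was saturated. Across probes, the Pearson r between replicates was 0.988 with Dox and 0.989 without. All 4 arrays lay on 1 slide, the cultures with Dox at positions 1 and 2 and those without at 3 and 4, so that position and Dox cannot be told apart. The wells of the line came from 1 clone. The p-values rest on the spread between wells of a culture, pooled over the 14 cultures of all 7 lines. They do not measure the spread between clones of a line.

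Sequences are shown for the probes that the results turn on, from 5′ to 3′ as deposited. The first set is a pair among the largest rises, shown because its probes match at 57 of 60 positions. The 3 mismatched bases, in capitals, are T11A, C27T and C45T, counted from the 5′ end of the first probe, with the base of the second probe after the position.
Z00051892-1: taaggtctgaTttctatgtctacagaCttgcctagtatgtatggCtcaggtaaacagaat
Z00076654-1: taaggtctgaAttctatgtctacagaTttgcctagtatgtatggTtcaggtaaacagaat

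The next set gives the other rises that are described one by one. Capitals mark the hexamer AATAAA, the usual polyadenylation signal near the end of a transcript.
Z00076502-1: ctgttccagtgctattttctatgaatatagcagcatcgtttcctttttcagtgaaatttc
Z00067688-1: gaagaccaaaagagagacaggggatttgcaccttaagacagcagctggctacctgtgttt
Z00022712-1: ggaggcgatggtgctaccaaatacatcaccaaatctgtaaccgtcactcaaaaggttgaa
Z00025439-1: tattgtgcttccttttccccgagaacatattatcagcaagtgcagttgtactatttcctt
Z00025195-1: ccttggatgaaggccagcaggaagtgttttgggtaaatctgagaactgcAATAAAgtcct
Z00062714-1: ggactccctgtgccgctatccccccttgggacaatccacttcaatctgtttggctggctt
Z00026897-1: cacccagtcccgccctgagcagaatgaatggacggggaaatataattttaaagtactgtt

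Of the probes that fell, 4 are shown with the same mark, and a further pair that overlaps is shown with its shared run of 58 bases in capitals.
Z00044877-1: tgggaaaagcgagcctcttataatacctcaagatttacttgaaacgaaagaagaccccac
Z00028557-1: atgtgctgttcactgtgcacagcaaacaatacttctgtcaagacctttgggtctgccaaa
Z00065408-1: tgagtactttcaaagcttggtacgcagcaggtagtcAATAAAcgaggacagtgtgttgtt
Z00003765-1: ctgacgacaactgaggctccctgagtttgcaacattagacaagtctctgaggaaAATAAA
Z00025726-1: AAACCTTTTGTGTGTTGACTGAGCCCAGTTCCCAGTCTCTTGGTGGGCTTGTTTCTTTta
Z00074409-1: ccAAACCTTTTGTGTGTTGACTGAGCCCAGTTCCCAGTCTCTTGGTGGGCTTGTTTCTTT

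The last set comes from a group of 34 probes of like sequence, which held 1 called probe, Z00077293-1. Capitals mark the longest run shared by the first and second (12 bases) and by the other two (33 bases).
Z00077293-1: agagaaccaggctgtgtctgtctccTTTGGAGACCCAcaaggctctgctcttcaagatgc
Z00072989-1: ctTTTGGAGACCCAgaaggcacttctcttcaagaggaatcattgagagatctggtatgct
Z00073040-1: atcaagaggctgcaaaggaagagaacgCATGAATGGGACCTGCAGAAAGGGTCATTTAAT
Z00073032-1: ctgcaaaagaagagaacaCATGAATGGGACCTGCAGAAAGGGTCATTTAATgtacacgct

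Few probes moved when the Jmjd2c transgene was on, and more of them rose than fell. A probe is said to have risen or fallen, or to have passed, where limma's adjusted p was under 0.05 in a fit over all 28 arrays. Of 27246 probes with a test, 78 passed (0.286%), 58 upwards (0.213%) and 20 downwards (0.0734%). The changes were small, with a median of 0.42 on the log2 scale among the rises and -0.37 among the falls. Only 16 of the 78 changed by at least 1.5-fold (0.0587% of all probes), 15 of them rises (0.0551%), and 5 by at least 2-fold (0.0184%). The unadjusted p was under 0.05 for 1979 probes (7.26%). The same fit on the Cy5 channel, where every array holds the same reference, called 1 probe (0.00367%), which was none of the 78, and gave 675 at an unadjusted p under 0.05 (2.48%).

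The count depends on which arrays enter the fit. Leaving out the with-Dox replicate 1 or 2 left 14 or 44 calls, and leaving out the without-Dox replicate 1 or 2 left 33 or 21, the lone array being assumed to vary like the other groups. Without the 4 arrays of the Tbx3 line, the only line spread over 2 slides, 419 probes passed, among them all 78. The split also moved with the scaling: normexp background correction with loess gave 109 rises and 17 falls, and the authors' deposited values gave 138 and 84 over 16939 probes.

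**Figure D1:**
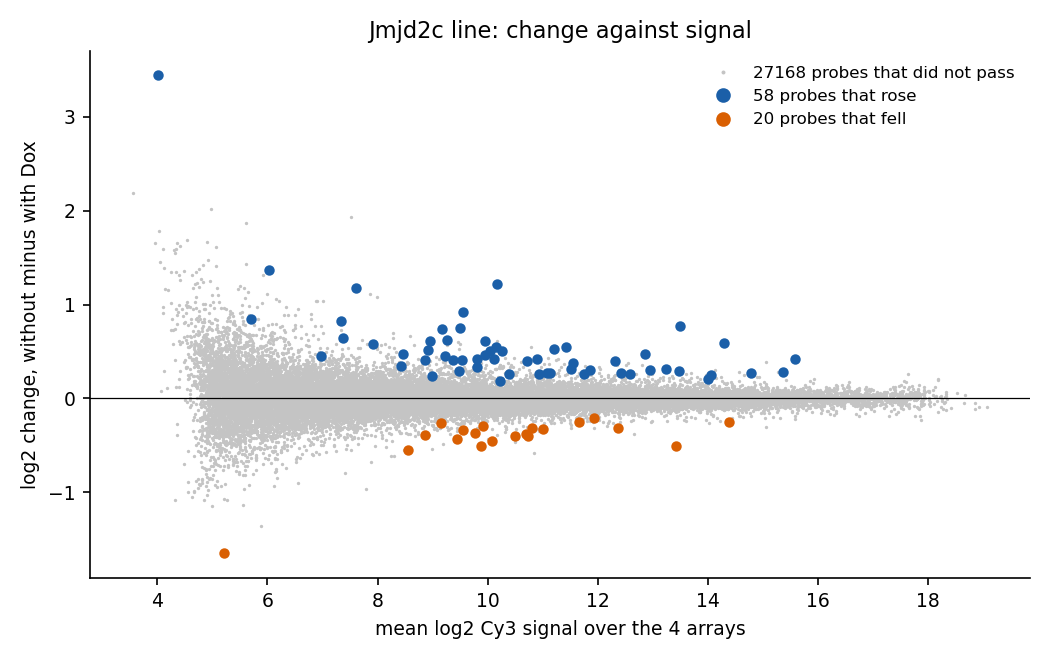
Change of each tested probe in the Jmjd2c line (log2, without minus with Dox) against its mean log2 Cy3 signal over the 4 arrays. Blue points are the 58 probes that rose and orange points the 20 that fell; the largest changes, 3.45 and -1.65, lie at the dim end, and most of the other calls are under 1 in size and lie at middle and high signal.

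The probe with the largest fitted change was Z00051892-1. Its level was -1.19 and -1.58 on the arrays with Dox and 1.99 and 2.14 on those without. With Dox both spots were too dim to count as well above background, so only a bound can be given, at least 1.26-fold higher without Dox. The fitted means were -1.38 ± 0.28 and 2.07 ± 0.10 (SD, n = 2 each), and the first is no measured level. The probe entered the test only through its arrays without Dox, so no weight is put on its adjusted p (limma, 0.0335). The spot is dim even when detected. Its brightness before background correction was 57.6 and 55.1 with Dox and 69.1 and 71.5 without, over a local background of 47 to 50. Its Cy5 signal was above background on 0 of the 4 arrays. The arrays of the other lines ranged from -1.67 to 2.18, so the 2 arrays without Dox lay inside that range.

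Its near twin Z00076654-1 was far brighter and showed the cleaner separation. Its level was 2.68 and 2.70 with Dox and 3.91 and 3.90 without. The 2 cultures did not overlap, as was required of each probe named by its size of change. Both arrays without Dox lay above all 26 others, whose highest value was 3.25. The rise was 1.22 ± 0.18 (SE), or 2.33-fold (limma, adjusted p = 0.00742). Before background correction the spot read 224 and 219 with Dox against 627 and 733 without. Its Cy5 signal, which holds the common reference, was itself higher by 0.63 on the arrays without Dox, and the part of the dye channels in this was not tested. Taken in the Cy3 channel alone the rise was 1.85.

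The other lines gave values for the same pair. Z00076654-1 rose by 0.87 when Tcl1 was on (adjusted p = 0.00695), and Z00051892-1 differed by 0.73 there without passing (adjusted p = 0.607). In the Ctbp2 line both were lower without Dox, by -0.41 and -1.05, and neither passed (adjusted p = 0.268 and 0.494). The 2 probes are nearly the same sequence and are not independent measurements.

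Z00076502-1 had the second-largest fitted rise, 1.36 ± 0.26 (SE), or 2.57-fold (limma, adjusted p = 0.0398). Its level was -3.48 and -2.78 with Dox and -2.07 and -1.45 without. The cultures did not overlap, but the gap between them was hardly wider than that between the wells with Dox. With normexp and loess the change was 0.29 and did not pass.

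Z00067688-1 read 1.64 and 1.72 with Dox and 2.72 and 2.98 without, a rise of 1.17 ± 0.20 (SE), or 2.26-fold (limma, adjusted p = 0.022). The cultures did not overlap, but arrays of the other lines reached 3.07. With normexp and loess the change was 0.67.

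Z00022712-1 read 1.47 and 1.89 with Dox and 2.44 and 2.75 without, a rise of 0.92 ± 0.16 (SE), or 1.89-fold (limma, adjusted p = 0.0252). Both arrays without Dox were above all others of the series, whose highest value was 2.40.

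Z00025439-1 was a bright probe that rose. It read 1.44 and 1.49 with Dox and 2.27 and 2.19 without, with Cy3 signals of 8973, 8643, 16015 and 14288 in that order. The rise was 0.77 ± 0.10 (SE), or 1.70-fold (limma, adjusted p = 0.00268), and both arrays without Dox again lay above all others, which ended at 1.86. With Ctbp2 on, the same probe fell by 0.38 (adjusted p = 0.0396).

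The smallest p belonged to Z00025195-1. Its level was -1.69 and -1.67 with Dox and -1.04 and -1.09 without, a rise of 0.61 ± 0.05 (SE), or 1.53-fold (limma, adjusted p = 4.54e-05). The wells of a culture differed far less than the cultures did. With Tcl1 on the probe rose as well, by 0.52 (adjusted p = 6.44e-06). With Etv5 or Ctbp2 on its change was -0.36 and -0.28 in that order (adjusted p = 0.000536 and 0.00234).

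**Figure D2:**
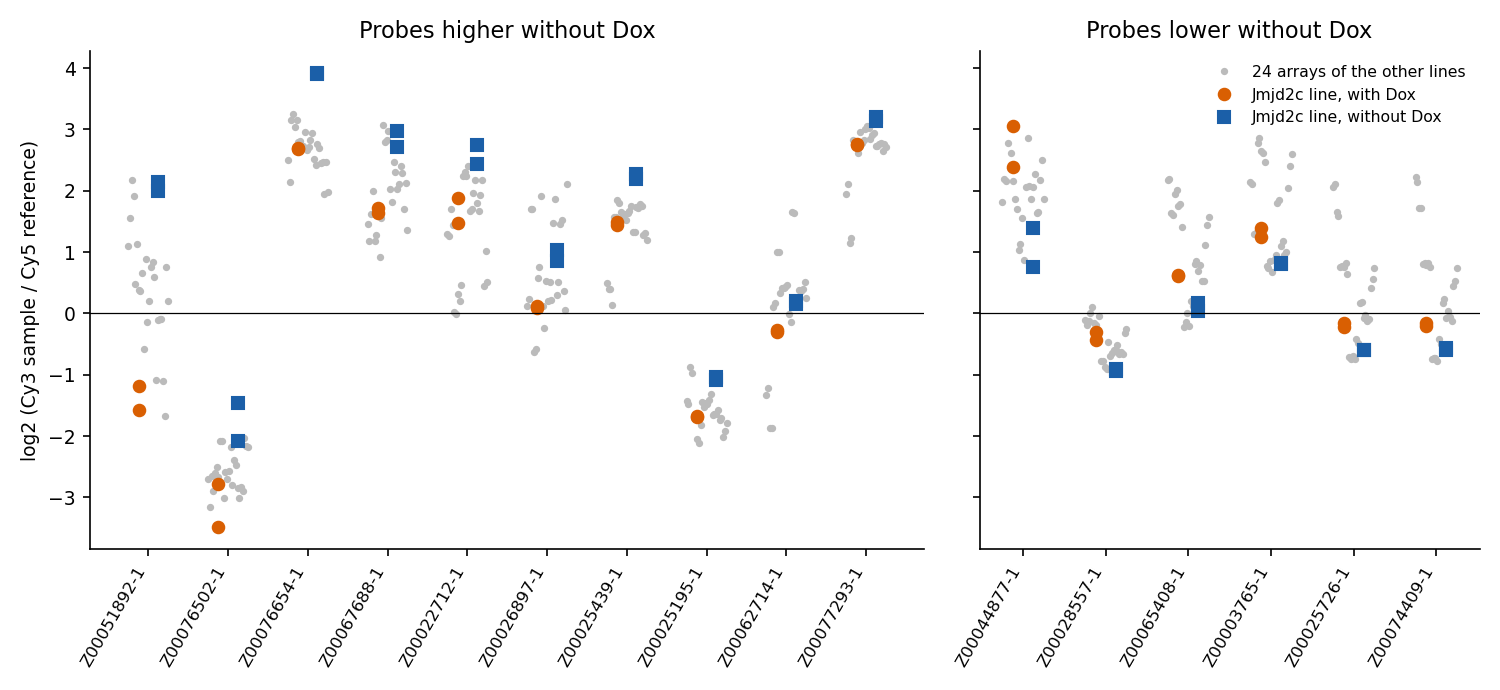
Level (log2 of Cy3 over Cy5) of 16 probes on each array. Orange circles are the 2 Jmjd2c arrays with Dox, blue squares the 2 without, and grey points the 24 arrays of the other lines. Z00076654-1 and Z00025439-1 without Dox stand above every grey point, whereas Z00051892-1 and the fallen pair at the right lie within the range of the other lines.

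The falls were smaller. Z00044877-1 had the largest, -1.65 ± 0.30 (SE; limma, adjusted p = 0.0312), with levels of 3.05 and 2.39 with Dox and 1.40 and 0.75 without. Its Cy5 signal was above background on 0 of the 4 arrays and was higher by 0.99 without Dox. In Cy3 alone the change was -0.65, and with normexp and loess it was -0.05; neither passed. More of the ratio's change lay in the reference signal, which was not above background, than in Cy3.

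The other falls stood at probes measured in both channels. Z00028557-1 read -0.30 and -0.43 with Dox and -0.91 and -0.94 without, a fall of 0.55 ± 0.11 (SE; limma, adjusted p = 0.0467). Both arrays without Dox lay below all other arrays, the lowest of which read -0.90. Z00065408-1, the brightest fall shown, read 0.61 and 0.62 with Dox and 0.17 and 0.04 without, a fall of 0.51 ± 0.09 (SE; limma, adjusted p = 0.022). Z00003765-1 read 1.25 and 1.39 with Dox and 0.81 and 0.82 without, a fall of 0.50 ± 0.09 (SE; limma, adjusted p = 0.0252). In none of the 3 did the cultures overlap, which was required of them and held for 44.6% of all probes. Z00028557-1 passed in no other line. Z00065408-1 and Z00003765-1 changed by -0.56 and -0.83 with Tcl1 on (limma, adjusted p = 0.000725 and 1.83e-05). With Ctbp2 on they changed by 0.67 and 0.91 (limma, adjusted p = 0.000131 and 7.03e-06). Z00003765-1 also rose by 0.31 with Tbx3 on (limma, adjusted p = 0.048).

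The overlapping pair Z00025726-1 and Z00074409-1 read 1 stretch of sequence at different spots of the same arrays. They are not independent measurements. The first read -0.22 and -0.16 with Dox and -0.60 and -0.59 without, a fall of 0.40 ± 0.05 (SE; limma, adjusted p = 0.00184). The second read -0.15 and -0.21 with Dox and -0.56 and -0.59 without, a fall of 0.40 ± 0.05 (SE; limma, adjusted p = 0.00184). On neither probe did the cultures overlap, which was a condition for naming them. In the other lines the pair moved in both directions: both probes fell by 0.46 when Tcl1 was on (adjusted p = 2.23e-05 and 2.2e-05) and rose by 0.63 and 0.67 when Ctbp2 was on (adjusted p = 7.89e-07 and 4.18e-07).

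With only 2 wells a culture, single calls rest on few values. Of the 16 called probes whose sequences are shown, 3 passed with each of the 4 arrays left out in turn, 5 passed in some of these fits, and 8 passed in none of them. The 3 were Z00025195-1, Z00062714-1 and Z00025726-1, with changes of 0.59 to 0.63, 0.45 to 0.49 and -0.44 to -0.37 over the 4 fits. The 8 kept their direction, which was set in advance, since their cultures did not overlap. For Z00051892-1, which has only a bound, no size is given. Z00076654-1 changed by 1.21 to 1.23, Z00067688-1 by 1.04 to 1.30, Z00026897-1 by 0.76 to 0.94 and Z00077293-1 by 0.38 to 0.46. The falls among them ranged from -0.62 to -0.49 for Z00028557-1, from -0.57 to -0.45 for Z00065408-1 and from -0.57 to -0.43 for Z00003765-1. Z00025439-1 and Z00074409-1 lost their calls only without the with-Dox replicate 1; their adjusted p ran from 0.029 to 0.0612 and from 0.0125 to 0.054 over the 4 fits. Z00076502-1, Z00022712-1 and Z00044877-1 lost theirs without that array and without the without-Dox replicate 2, and their adjusted p ran from 0.0304 to 0.509, from 0.0288 to 0.366 and from 0.0381 to 0.422.

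All 7 lines share the washes and the 48 hours without Dox. The order on the slide is shared by all but the Tbx3 line, whose arrays with Dox lay at positions 2 and 3. Each Jmjd2c change was also compared with the average change over those 6 lines without it. By that test 81 of 27245 probes differed (0.297%), 63 towards a higher (0.231%) and 18 towards a lower value (0.0661%) in the Jmjd2c line. Leaving out the with-Dox replicate 1 or 2 gave 11 or 42 such calls, leaving out the without-Dox replicate 1 or 2 gave 23 or 19, and 302 passed without the Tbx3 arrays. Of the 58 rises 38 passed it, and of the 20 falls 7 did, 45 probes in all. The test holds the Jmjd2c change itself, from the same arrays, so this overlap is partly set in advance. Z00076654-1 differed from the mean of the other lines by 1.24 ± 0.20 (SE, adjusted p = 0.0111), Z00025439-1 by 0.80 ± 0.11 (adjusted p = 0.00579) and Z00025195-1 by 0.62 ± 0.05 (adjusted p = 0.000111). Z00076502-1, Z00067688-1 and Z00022712-1 differed by 1.27, 1.04 and 0.74 and did not pass (adjusted p = 0.0945, 0.0631 and 0.119).

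Some rises were not particular to Jmjd2c. Z00026897-1 read 0.08 and 0.12 with Dox and 1.04 and 0.86 without, a rise of 0.85 ± 0.16 (SE; limma, adjusted p = 0.032). It also rose by 1.08 to 1.80 in 5 other lines, Mettl5 the least and Tbx3 the most, and stood 0.42 higher in the Jarid2 line without passing. Its Jmjd2c change was 0.39 below the mean of the other lines (adjusted p = 0.635). It was dim, and with normexp and loess its change in the Jmjd2c line was 0.17 and did not pass. Z00062714-1 read -0.28 and -0.31 with Dox and 0.20 and 0.16 without, a rise of 0.47 ± 0.05 (SE; limma, adjusted p = 0.00129). It rose by 1.72 in the Ctbp2 line and by 0.86 in the Etv5 line and fell by 0.60 in the Tcl1 line, so that its difference from the mean of the others was 0.13 (adjusted p = 0.679).

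Among the falls, calls in the Tcl1 and Etv5 lines were all falls, and those in the Tbx3 line all rises. Over all probes, 7.83% passed with Tcl1 on, 4.66% with Etv5, 7.55% with Tbx3 and 5.69% with Ctbp2. Of the 20 probes that fell with Jmjd2c on, 14 fell and 0 rose with Tcl1 on, where 4.67% of all probes fell. With Etv5 on 8 fell and 0 rose, where 2.69% of all probes fell. With Ctbp2 on 10 rose and 1 fell, against 3.60% and 2.09% of all probes, and with Tbx3 on 7 rose and 0 fell, against 3.33% and 4.22%. The median changes of the 20 were -0.32, -0.25, 0.21 and 0.15 in the 4 lines in that order. In the Jarid2 and Mettl5 lines none of them passed by the same limma fit, which called 3 and 7 probes in all there (0.0110% and 0.0257%; for Jarid2 rises, 0.00734%).

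The 58 rises were mixed. With Tcl1 on 17 rose and 12 fell, against 3.16% and 4.67% of all probes, and with Ctbp2 on 10 rose and 15 fell, against 3.60% and 2.09%. With Etv5 on 14 rose and 2 fell, against 1.97% and 2.69% of all probes, and with Tbx3 on 7 rose and 6 fell, against 3.33% and 4.22%. In the Mettl5 line 2 rose, against 0.0257% of all probes, and in the Jarid2 line none passed. In all, 12 of the rises and 4 of the falls passed in no other line, with no share over all probes given to set this against. The fit shares 1 spread per probe over all lines, so a probe with a small spread passes more easily in each of them, and the part of this in the shared calls was not tested.

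**Figure D3:**
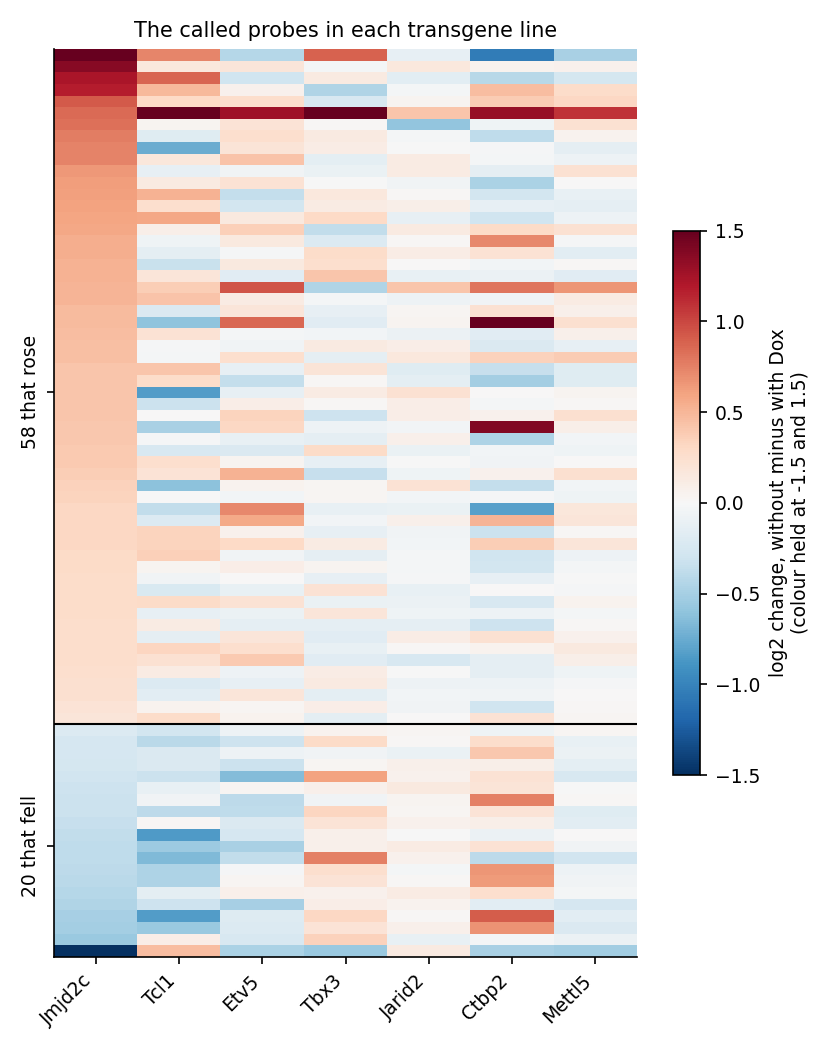
Change (log2, without minus with Dox) of the 78 called probes, 1 row each, in the Jmjd2c line and the 6 other lines, with colours held at -1.5 and 1.5. The rows are ordered by the Jmjd2c change; below the line, the 20 falls are mostly blue under Tcl1 and mostly red under Ctbp2, and the 58 rises show no single pattern.

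The levels of the called probes were also set beside the range of the series. Both arrays without Dox lay above all 26 other arrays for 16 of the 58 rises, against 0.852% of all probes, and below all 26 for 4 of the 20 falls, against 0.962%. The calls were made on these same arrays, so shares above those of all probes are partly set in advance. For 39 of the rises and 15 of the falls, both arrays without Dox lay within the range spanned by the 24 arrays of the other lines. No share over all probes is given for this, so these counts cannot be read as many or few. The 2 cultures of the line did not overlap for any of the 78, as they did not for 44.6% of all probes (22.0% higher and 22.6% lower without Dox).

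A set of like-sequence probes was followed beyond the calls. Called probes were searched against all probes on the array for stretches of at least 24 bases in which matches outnumbered mismatches by at least 20. Of the 78, 5 had such a partner: the 2 pairs above and Z00077293-1, whose links led from probe to probe through a group of 34. Of these 34, 27 were bright enough to be tested, and the other 7 were not well above background on both arrays of either culture. The group was taken up because of the called probe, and its members share bases, so it gives no independent replicates.

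In that group nearly all tested members were higher with Jmjd2c on, but few passed. Z00077293-1 read 2.75 and 2.76 with Dox and 3.21 and 3.14 without, a rise of 0.42 ± 0.08 (SE; limma, adjusted p = 0.03), and both arrays without Dox lay above all others. Of the 27 tested members 26 were higher without Dox, 25 with cultures that did not overlap (22.0% of all probes were higher in this way), and the changes ran from -0.11 to 0.57 with a median of 0.36. Only Z00077293-1 passed within the line (0.286% of all probes), and 5 passed against the mean of the other lines (0.297%). With normexp and loess the median was 0.37, 26 were higher and 12 passed (0.462% of all probes). The levels were high, with a median over the members of 3.33 and 3.42 with Dox and 3.72 and 3.71 without.

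The 4 members besides Z00077293-1 that differed from the other lines include all the others printed above. Z00072989-1 read 3.09 and 3.25 with Dox and 3.46 and 3.45 without, a change of 0.28 that did not pass and a difference from the other lines of 0.47 ± 0.09 (SE, adjusted p = 0.0277). Z00073040-1 read 3.33 and 3.42 with Dox and 3.76 and 3.85 without, a change of 0.43 that did not pass and a difference of 0.57 ± 0.10 (SE, adjusted p = 0.0151). Z00073032-1 and Z00073033-1 have the same 60 bases at different spots. They read 2.95 and 3.37 on the first array with Dox, yet both changed by 0.37 within the line, and their differences from the other lines were 0.53 and 0.53 (adjusted p = 0.0316 and 0.0277).

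In the Tcl1 line all 27 were lower without Dox and 23 fell, against 4.67% of all probes, with a median change of -1.03. The median change was 0.25 in the Tbx3 line, where 2 rose, against 3.33% of all probes. It was -0.17, 0.05, 0.03 and -0.07 in the Etv5, Jarid2, Ctbp2 and Mettl5 lines, where 1 rose, in Ctbp2, against 3.60% of all probes there, and none fell by the same limma fit. The difference of the Jmjd2c group from the others therefore holds both its own rise and the Tcl1 fall, since the mean of the other 6 lines includes Tcl1.

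**Figure D4:**
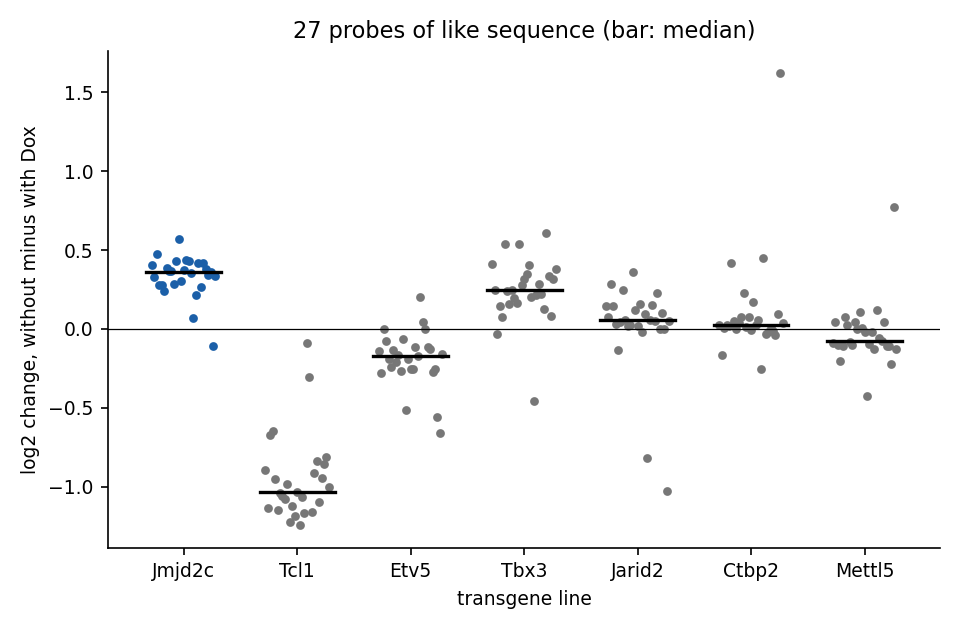
Change (log2, without minus with Dox) of the 27 tested probes of the like-sequence group in each line, 1 point per probe, with the median as a bar. In the Jmjd2c line the points run from -0.11 to 0.57 with a median of 0.36. In the Tcl1 line the median is -1.03, and the medians of the other lines lie between -0.17 and 0.25.

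The median GC content was 45% for the rises, the falls and all tested probes. AATAAA, read on the printed strand only and counted once a probe, stood in 6 of the 58 rises (10.3%), in 5 of the 20 falls (25%) and in 7.64% of all tested probes.

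The size of the changes at dim probes depended on how background was removed. Of the 78 called probes 63 also passed with normexp and loess, which is 80.8% of the 78 and 50% of the 126 called that way (0.462% of all probes), and all 78 kept their direction. The fitted change of Z00051892-1 was 0.48 there in place of 3.45, and that of Z00076654-1 was 1.38 in place of 1.22. Of the 42006 probes, 313 were well above background without Dox on both arrays and with Dox on neither, against 24 the other way round. Of the 313, Z00051892-1 passed and no other did, and of the 24 none did. Over all tested probes 0.286% passed, so these counts cannot be read as few. The arrays without Dox had more probes well above background in Cy3, 28653 and 27414 against 27278 and 27018 with Dox. The part of this unequal detection in the counts of 313 and 24 was not tested.

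**Figure D5:**
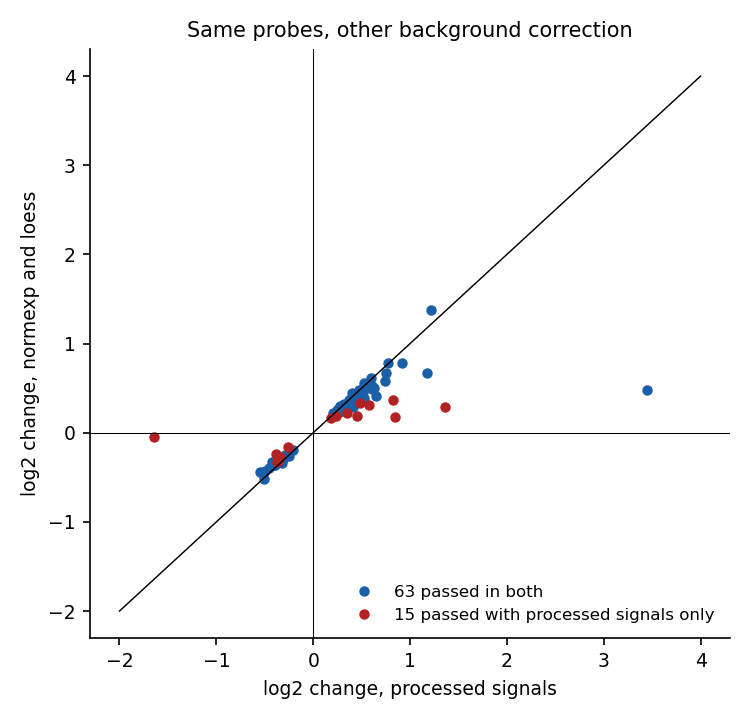
Change of the 78 called probes in the Jmjd2c line (log2, without minus with Dox) from the processed signals on the horizontal axis and after normexp and loess on the vertical axis, with the line of equality. The 63 blue probes passed in both and the 15 red ones only with processed signals; Z00051892-1, at 3.45 and 0.48, and Z00044877-1, at -1.65 and -0.05, lie farthest from the line.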

How the data were processed

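The 28 arrays are 2-colour Agilent gene expression arrays. Per the file headers, the authors' spot intensities (mean, background and processed signals) and their flags come from Agilent Feature Extraction 9.5.1.1, protocol GE2-v5_95_Feb07. The deposited value table holds log10 values: they equal Cy3 less each array's Cy5 deviation from its mean over arrays (within 0.01 for at least 99.95% of 8789 bright spots on each Jmjd2c array), and its Jmjd2c columns have medians of 2.27, 2.27, 2.27 and 2.28. The dyes come from the labels, and genes were not centred.

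Here log2(Cy3/Cy5) was taken from the processed signals without the 1417 control spots and without flagged spots, and averaged per probe. limma 3.58.1 in R 4.3.3 fitted 14 group means over 28 arrays (14 residual degrees of freedom), two-sided, with Benjamini-Hochberg adjustment over all tested probes. Contrasts were tested on simulated data. With 2 against 2 arrays, an exact permutation test of 1 probe cannot go below 0.333. The number of arrays limits precision. The members and lists were chosen with earlier results of these data known. Probes named were to be the 15 largest rises and falls that passed; having no gene, they are given as at most 2 by size in each direction plus those whose sequences are shown. Alternatives were another background correction, centring, channel, value table, filter, variance prior, set of arrays and a replicate block.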

Additional observations from a re-analysis of the deposited data

Results flagged for a closer look

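The Jmjd2c change differed from the mean change of the other 6 lines, by the limma contrast of the difference itself, for 81 probes. Among the largest changes within the line, 17 probes showed such a difference, which rests on the same Jmjd2c arrays as the change itself. Of those shown by sequence, Z00051892-1 had a fitted difference of 3.53, which is no measured size, since its arrays with Dox were not well above background; with normexp and loess it was 0.49. Z00076654-1 differed by 1.24, Z00025439-1 by 0.80 and Z00025195-1 by 0.62. The fallen ones differed by -0.45 for Z00074409-1, -0.47 for Z00025726-1, -0.50 for Z00065408-1 and -0.51 for Z00003765-1. For each of these fallen probes the mean of the other lines holds both a fall with Tcl1 on and a rise with Ctbp2 on. The others, not named here, differed by 0.85, 0.85, 0.66, 0.66, 0.62 and 0.51 upwards and by -0.37, -0.37 and -0.49 downwards.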

How the results depend on the processing

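None of the 34 probes followed singly changed direction under any of these alternatives. For the fits with 1 array left out this was set in advance, since the cultures overlapped for none of the called probes. The 78 calls within the line became 126 with normexp and loess, 135 in Cy3 alone, 222 in the authors' value table, 419 without the Tbx3 arrays and 0 by limma on the 4 Jmjd2c arrays alone, where 3060 probes had an unadjusted p under 0.05. The 81 calls against the other lines became 126, 138, 252 and 302 under the first 4 of these. With the replicate block the counts were 16 and 9; the samples share only a number (the correlation of replicate differences between the cultures was -0.017). Leaving out 1 array gave 14 to 168 calls within the line and 11 to 192 against the others; the high ends came from Tbx3 arrays, added after seeing the data. Median centring, no filter, a stricter filter and an intensity trend kept both counts within 1.5 times, but not always the same probes: of the 78, 64, 38, 76 and 67 were called in that order, and 42 in Cy3 alone. Of the 34 probes followed singly, 15 lost their call with no filter and 14 in Cy3 alone. Without centring, the Cy5 channel gave 0 calls (limma; 260 at an unadjusted p under 0.05). Averaging the probes of a gene was not run, since no probe has a gene name. The cause of these moves was not tested. Low signal over background limits dim probes: the median Cy3 brightness of the Jmjd2c arrays was 1.77 to 1.89 times the local background.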
